A study of Mus musculus with 6 samples.

Results

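Mir21a, the mouse hairpin gene that gives miR-21a, was 1 of 700 miRNA hairpins with reads among 1174 hairpins searched in small RNA libraries of cultured bone marrow monocytes/macrophages (BMMs). Reads of 18 nt or more were assigned to Mir21a when they matched the hairpin exactly, apart from at most 3 unmatched bases at their 3′ end. The cells came from wild type C57BL/6 mice and were either control samples (n = 3), which the study's methods describe as receiving PBS, or received 5 pg/ml LPS for 4 h (n = 3). LPS is the endotoxin of Gram-negative bacteria, and the question was which miRNAs respond to so low a dose. How many mice or cultures the samples came from is not given in the sources used here, so the p-values measure the spread between these samples, which may be technical.

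A miRNA hairpin is cut from a longer transcript and then trimmed by Dicer to a duplex, of which the arm loaded into an Argonaute protein guides the repression of messenger RNAs. Target choice rests largely on the seed, bases 2 to 8 from the 5′ end. miR-21 is an abundant miRNA of macrophages and many other cells. Its gene is known to be activated through AP-1, STAT3 and NF-κB, and its targets include the messenger RNA of Pdcd4, an inhibitor of translation. In macrophages stimulated with high doses of LPS, miR-21 is known as a late brake on inflammatory output.

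The RefSeq sequences of both arms are shown because all later values refer to their ends, with the seed in capitals. Both lie on the minus strand of chromosome 11 in GRCm38, miR-21a-5p at chr11:86584120-86584141 and miR-21a-3p at chr11:86584082-86584103.

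mmu-miR-21a-5p: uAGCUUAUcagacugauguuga

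mmu-miR-21a-3p: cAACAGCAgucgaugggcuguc

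mmu-miR-21c: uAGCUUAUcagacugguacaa

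The hairpin spans 92 nt, from 86584067 to 86584158, and lies inside the last exon of Vmp1 (86583865 to 86585451), a gene for an autophagy membrane protein on the same strand, in its annotated 3′ UTR. Among 1679 mature mouse miRNA names in the RefSeq table, 1 other had the seed of miR-21a-5p, namely miR-21c, and 0 others had the seed of miR-21a-3p. miR-21c shares the first 15 bases with miR-21a-5p and then differs by A16G, G18A, T19C, T20A and G21A, with the base and position of miR-21a-5p first, counted from its 5′ end. Mir21c had 0 reads in all 6 samples, which allows a level of up to 0.275 to 2.00 RPM (reads per 1000000 hairpin reads, at 3 counts per library). Mir21b, the other relative, had 1 read in control replicate 2 and 0 elsewhere. No Mir21a read matched another hairpin as well, with 0 such reads in each sample, so the values below belong to Mir21a.

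The samples held 2201520 to 17691405 reads, of which 61.6% to 71.0% matched a hairpin. LPS replicate 2 stood apart as the deepest library, and single-read sequences made up 18.6% of its distinct sequences, compared with 67.1% to 74.6% elsewhere. It also held 55040 CPM (counts per 1000000 after TMM normalization) of miR-146a-5p (Mir146-5p), where the other samples held 2685 to 4658. Of the markers of the myeloid lineage, Mir223 was at 6087 to 6574 and Mir142 at 25864 to 30826 RPM. All 6 hairpins of the myeloid list had reads, at a summed level of 361507 to 409376. Mir21a itself is in that list, and most of the sum was Mir22 (191788 to 200068 RPM) and Mir21a (124001 to 165686 RPM). Mir142b had only 2 reads over all samples, and Mir146 added 55447 RPM in LPS replicate 2. The sum is therefore not a measure of myeloid identity. Among lists of other cell types, the erythroid one was the highest at 612 to 1032 RPM, nearly all of it Mir486, while Mir451a and Mir144 were at or near 0. The epithelial list (6 of 6 hairpins) lay at 78.2 to 98.6 RPM in 5 samples and at 173 in LPS replicate 2. Stromal hairpins, of cells that also hold much miR-21, summed to 7.34 to 14.2 RPM (5 of 6 with reads). The lists for lymphoid, platelet or endothelial, muscle, liver and neuronal cells summed to at most 51.6 RPM, with the muscle markers Mir1a-1 and Mir206, the neuronal Mir124a-1 and the smooth muscle marker Mir145a at 0 in all samples. Their part in the results was not tested.

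miR-21a-5p was among the most abundant miRNAs of these cells. The arm drew 407815, 281654 and 292579 reads from the control libraries and 508202, 1409055 and 184048 from the LPS libraries, in the order of replicates 1, 2 and 3. In RPM, the level was 159476, 164339 and 123675 in the control samples. The LPS samples were at 160373, 128947 and 122793. Replicate 3 was the lowest sample of each group, and the groups overlapped almost entirely. Mir21a as a whole, both arms together, took 12.4% to 16.6% of all hairpin reads. Levels of different miRNAs also reflect how well each sequence is ligated and amplified, so an order of levels is an order of reads.

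In that order miR-21a-5p was the third arm in 5 samples and the second in LPS replicate 2. miR-22-3p was the first in all 6 samples, at 191707 to 200003 RPM, and miR-21a-5p reached 61.4% to 83.7% of it. miR-27b-3p was above miR-21a-5p in 5 of 6 samples. In the control samples they were separate, at 185815 ± 4990 and 149163 ± 22207 RPM (SD, n = 3). With LPS, at 165188 ± 33141 and 137371 ± 20157 (SD, n = 3), the ranges of these neighbours overlapped, since miR-27b-3p was at 127270 in LPS replicate 2. Below miR-21a-5p there was a wide gap. The next arms were miR-16-5p at a mean of 31948 RPM over the 6 samples, miR-10a-5p at 30782 and let-7f-5p at 28509, whose highest sample values (42797, 37113 and 32322) were all far below the lowest of miR-21a-5p. The ranges of these 3 arms overlapped one another.

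**Figure D1:**
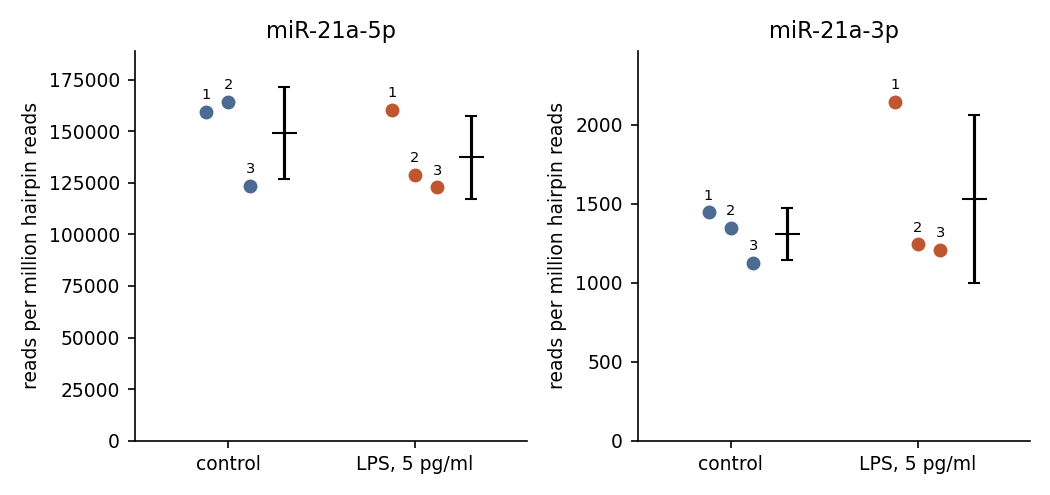
Level of miR-21a-5p (left) and miR-21a-3p (right) in RPM on linear axes from 0, for 3 control and 3 LPS samples; points are samples with their replicate numbers, and the bar beside them is the mean ± SD. The groups overlap on both arms, and LPS replicate 1 is the highest of the 3p points at 2146.

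The comparison of LPS with control used counts of 319 arms, scaled by TMM. The test was the quasi-likelihood one of edgeR, and p-values were adjusted by Benjamini-Hochberg over all arms. After TMM normalization, the mean of miR-21a-5p was 151477 ± 29276 CPM for control and 136735 ± 25331 for LPS (SD, n = 3 each). Its log2 fold change was -0.15 (SE 0.20, 95% interval -0.63 to 0.34, adjusted p = 0.994 by edgeR). The interval leaves room for a fall by 0.63 or a gain of 0.34 on the log2 scale, so the data bound the response of miR-21a-5p without fixing its sign. miR-21a-3p, the minor arm, was at 1325 ± 229 and 1532 ± 590 CPM (SD, n = 3 each), a log2 fold change of 0.21 (SE 0.28, 95% interval -0.47 to 0.89, adjusted p = 0.994 by edgeR). Neither arm passed the threshold of 0.05. Across all 319 arms, 0 were called higher (0%) and 0 lower (0%), with 7 higher and 1 lower at an unadjusted p under 0.05. DESeq2 and limma-voom also called 0 in each direction, with 4 higher and 0 lower, and 4 higher and 1 lower, at an unadjusted p under 0.05. The difference of the 3p arm rested on LPS replicate 1, and without it the log2 fold change was -0.15.

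A list of 18 hairpins reported to respond to strong LPS stimulation in macrophages gave a wider view of the response to 5 pg/ml. All 18 had reads, and 21 of their arms were tested. Of these, 0 were called higher and 0 lower, with 11 of 21 above 0 and a median log2 fold change of 0.00, beside 162 of 319 above 0 and a median of 0.00 over all arms tested. miR-146a-5p (Mir146-5p), a feedback inhibitor of Toll-like receptor signalling, had the widest spread of the abundant members. It was at 4163, 4658 and 2685 CPM in the control samples, and at 4076, 55040 and 2874 with LPS. Only LPS replicate 2 was high, and the log2 fold change of 2.43 (SE 1.12, adjusted p = 0.994 by edgeR) did not pass the test. miR-223-3p, a myeloid miRNA, was at 5795 to 5929 in the control samples and 5651 to 5778 with LPS, with a log2 fold change of -0.04 (SE 0.10, adjusted p = 0.994 by edgeR). miR-222-3p and miR-221-3p had log2 fold changes of 0.00 and -0.06, miR-125a-5p 0.11 and miR-99b-5p -0.23 (adjusted p = 0.994 by edgeR for each). Of less abundant members, miR-146b-5p, miR-155-5p and miR-132-3p had 1.73, 0.89 and 0.68, and miR-125b-5p and let-7e-5p -0.33 and -0.10. The first 3 were each highest in LPS replicate 2 (2946, 211 and 39.7 CPM). The list was not split by reported direction, so its median and sign count do not measure a response.

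Among 139 other arms with a mean of at least 100 CPM, those whose log2 level followed miR-21a-5p most closely across the 6 samples were miR-99b-5p (Pearson r = 0.98, n = 6), miR-22-3p (0.97), miR-192-5p (0.96), miR-99b-3p (0.96) and miR-186-5p (0.94). Spearman's rho for the same arms was 0.83, 0.66, 0.71, 0.94 and 0.77. Without LPS replicate 2 the r values were 0.98, 0.98, 1.00, 0.96 and 0.95. The 6 points share their libraries and normalization, and the ranking is a description of TMM-scaled levels. In RPM, without TMM scaling, miR-22-3p was highest in replicate 3 of both groups (199541 in control, 200003 with LPS). miR-21a-5p was lowest of its group in those samples (123675 and 122793 RPM). After scaling, miR-22-3p was low in them as well, at 189900 and 190390 CPM, so its r depends on the scaling. The same limit applies to miR-186-5p, which ran only from 5050 to 5582 CPM, while the TMM factors ran from 0.954 to 1.05. No r was computed in RPM. miR-99b-5p was at 9333, 7947 and 4627 CPM in control replicates 1, 2 and 3 and at 9048, 5175 and 4420 with LPS. It was thus low in the same samples as miR-21a-5p, namely replicate 3 of both groups and LPS replicate 2. The 2 arms of Mir21a followed each other less closely (r = 0.77).

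The reads showed which molecules made up miR-21a-5p. There were 250 distinct sequences of this arm, but 6 of them, each with a mean share of at least 1%, held 98.2% of its reads. They are shown because they differ only at the 3′ end. Capitals mark bases after the annotated end of miR-21a-5p, and letters are those of the sequenced DNA.

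24 nt, templated: tagcttatcagactgatgttgaCT

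22 nt, annotated: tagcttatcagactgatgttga

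23 nt, templated: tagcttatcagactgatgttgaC

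24 nt, C unmatched: tagcttatcagactgatgttgaCC

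21 nt, templated: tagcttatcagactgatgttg

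24 nt, A unmatched: tagcttatcagactgatgttgaCA

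No single end dominated. The 24-nt form that follows the hairpin for 2 bases past the annotated end made up 37.0%, 35.1% and 34.5% of miR-21a-5p reads in control replicates 1, 2 and 3, and 36.6%, 30.8% and 34.4% with LPS. The annotated 22-nt form made up 32.9%, 32.4% and 34.6% in the control samples, and 33.7%, 36.7% and 33.8% with LPS. The 24-nt form was thus ahead in 4 samples, the annotated form was ahead in LPS replicate 2 (36.7% against 30.8%), and in control replicate 3 they were nearly equal. The 23-nt form with its added C held 21.9% to 24.4% in all 6 samples. The templated 21-nt form was minor, at 1.98% to 2.23% in the control samples and 2.26% to 2.48% with LPS. These ranges did not overlap, but the difference was not tested, and it is 1 of many forms looked at. By length alone, 22-nt reads were 32.6% to 36.8%, 23-nt reads 22.8% to 25.3% and 24-nt reads 35.0% to 41.0% of the arm.

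**Figure D2:**
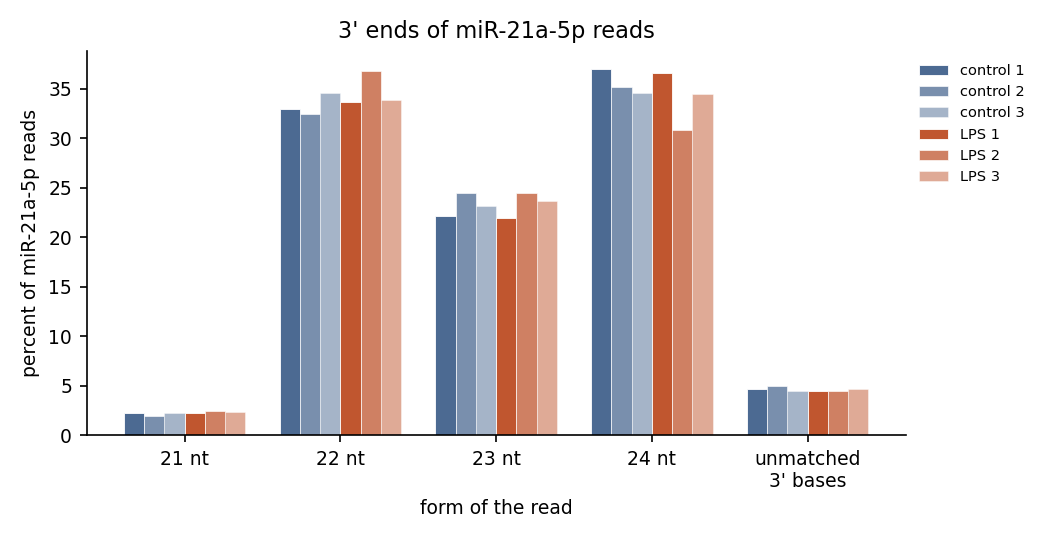
Percent of miR-21a-5p reads in each 3′ form, one bar per sample on a linear axis from 0 (blue, control; orange, LPS); the forms of 21 to 24 nt match the hairpin and start at the annotated 5′ end, and the last group holds reads with 1 to 3 unmatched 3′ bases. The 22-nt and 24-nt forms are the tallest bars in each sample, and LPS replicate 2 has the highest 22-nt bar (36.7%) and the lowest 24-nt bar (30.8%).

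Compared between groups, the 22-nt share was 33.3% ± 1.14 in the control samples and 34.7% ± 1.72 with LPS (SD, n = 3 each), a difference of 1.43 percentage points (exact permutation test, two-sided, p = 0.4, adjusted p = 0.8). With 3 samples against 3, no p below 0.1 is possible, and the adjustment covers the 8 values of this kind. Without LPS replicate 2 the difference was 0.434 points. The 23-nt share was 23.3% ± 1.14 and 23.3% ± 1.29 (SD, n = 3 each; p = 1 by exact permutation), and the difference was -0.481 points without LPS replicate 2. The mean length of the reads was 23.01 ± 0.024 nt in the control samples and 22.98 ± 0.045 nt with LPS (SD, n = 3 each; p = 0.3 by exact permutation, adjusted p = 0.8). The lengths lay between 22.93 nt, in LPS replicate 2, and 23.03 nt, and the difference was -0.036 nt with this library and -0.010 nt without it.

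The 5′ end, which sets the seed, was nearly fixed. Of miR-21a-5p reads, 99.16% to 99.20% began at the annotated base, and a further 0.662% to 0.717% began 1 base earlier. Starts other than the annotated one made up 0.817% ± 0.023 of reads in the control samples and 0.828% ± 0.017 with LPS (SD, n = 3 each; p = 0.7 by exact permutation, adjusted p = 0.8). The difference was 0.0104 points, and 0.0048 points without LPS replicate 2. It varied with the read-length limit, at 0.038 points for reads of 16 nt or more (unadjusted p = 0.1 by exact permutation). For reads of 20 nt or more it was 0.017 points (unadjusted p = 0.5 by exact permutation).

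Bases that do not match the hairpin at the 3′ end, as terminal nucleotidyl transferases leave them, were seen in 4.43% to 5.02% of miR-21a-5p reads. Most such reads carried 1 unmatched base (4.26% to 4.83% of the arm), and 3 were seen in 0.023% to 0.034%. Unmatched C led with 2.32% to 2.69% of the arm, followed by A with 1.68% to 1.90%. G and T were rare, at 0.111% to 0.300% and 0.099% to 0.136%. A base that matches the hairpin counts as templated whatever its origin, and an added base cannot be told apart from a misread last base. The whole tailed share was 4.70% ± 0.300 in the control samples and 4.56% ± 0.086 with LPS, and the A share 1.78% ± 0.113 and 1.76% ± 0.088 (SD, n = 3 each; p = 0.7 by exact permutation and adjusted p = 0.8 for both measures). The difference in the A share was -0.017 points, and -0.068 points without LPS replicate 2.

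Which base followed depended on where the templated part ended. In human cells, the poly(A) polymerase PAPD5 is known to add adenosine to miR-21, so the ends were compared within each sample. Among reads whose templated part was the 23-nt form, with at most 1 further base, 5.31% to 5.72% carried an A and 8.20% to 9.23% a C. After the 22-nt form an A was seen in 0.418% to 0.696%, a lower share than after the 23-nt form in all 6 samples. After the 24-nt form an A was seen in 0.012% to 0.021%. T followed the 22-nt form in 0.196% to 0.296%. The A and C after the 23-nt end are the last bases of the printed 24-nt sequences with an unmatched base, which held 1.37% to 1.65% and 2.30% to 2.67% of the arm. The shares after the 23-nt form overlapped between control and LPS samples for A (5.32% to 5.72% and 5.31% to 5.71%) and for C (8.51% to 9.23% and 8.20% to 9.17%). G after the 21-nt form was 2.80% to 4.85% in 5 samples and 0.281% in LPS replicate 2.

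**Figure D3:**
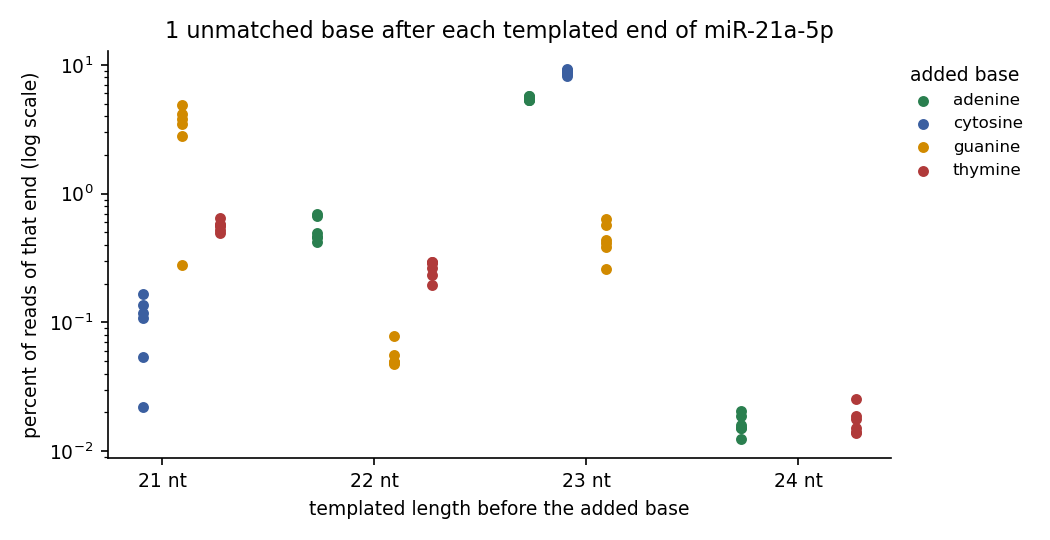
Percent of reads with 1 unmatched base after each templated length of miR-21a-5p, on a log axis, with 1 point per sample and colour for the base; the base that the hairpin itself has next is counted as templated and has no points, nor do shares of 0. Adenine after the 23-nt form (5.31% to 5.72%) lies above adenine after the 22-nt form (0.418% to 0.696%) in each sample, and guanine after the 21-nt form has 1 low point, LPS replicate 2.

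miR-21a-3p, the arm mostly discarded from the duplex, was read 3695, 2308 and 2662 times in the control libraries and 6799, 13582 and 1811 times in the LPS libraries, again in replicate order. This was 1445, 1347 and 1125 RPM in the control samples and 2146, 1243 and 1208 with LPS. Only LPS replicate 1 lay above the control samples. By level, miR-21a-3p ranked 44 to 61 among all arms.

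Its share of Mir21a reads does not depend on library size. It was 0.898% (95% Wilson interval 0.870% to 0.927%), 0.813% (0.780% to 0.846%) and 0.902% (0.868% to 0.936%) in control replicates 1, 2 and 3. With LPS it was 1.32% (1.29% to 1.35%), 0.955% (0.939% to 0.971%) and 0.974% (0.931% to 1.02%). The intervals cover at most counting error and may be too narrow, since reads without molecular identifiers are not independent molecules. All 3 LPS samples were above all 3 control samples, so any pairing of them has the LPS sample higher. The means were 0.871% ± 0.050 and 1.08% ± 0.206 (SD, n = 3 each), a difference of 0.212 percentage points. The exact permutation test gave p = 0.1, the smallest possible for 3 samples against 3, and an adjusted p of 0.8, so the difference did not pass the threshold. Taken as 3 pairs of the same replicate number, an exact sign-flip test gave p = 0.25, the smallest possible for 3 pairs. That outcome follows from the lack of overlap and adds nothing to it. Most of the difference came from LPS replicate 1. Without that sample the difference was 0.0938 points, and without LPS replicate 2 it was 0.277 points. As background, among 73 hairpins with reads from both arms and a mean of at least 1000 reads, the share of the minor arm was higher in every LPS sample than in every control sample in 4.11% (3 hairpins, Mir21a included) and lower in 2.74%. In 5p reads per 3p read, the control samples stood at 110, 122 and 110 and the LPS samples at 74.7, 104 and 102. Of the 73 hairpins, 24 had a lower minor-arm share than Mir21a, whose mean was 0.977% beside a median of 2.03%.

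**Figure D4:**
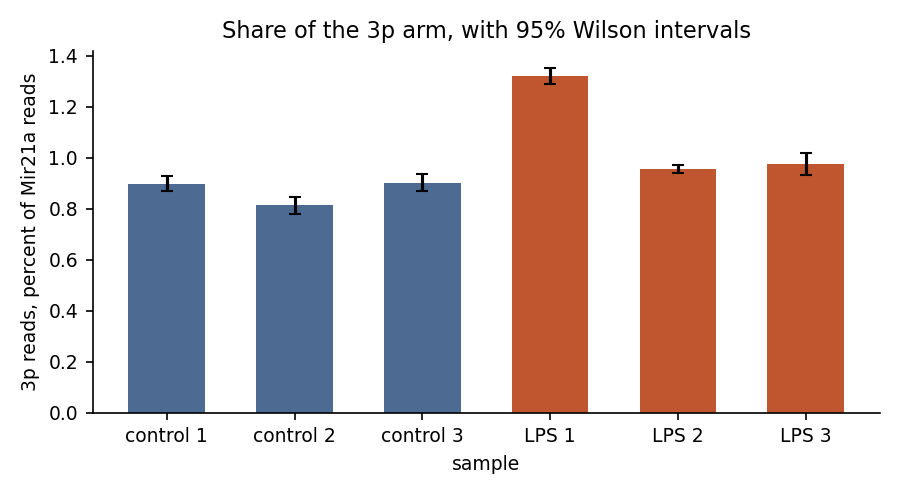
3p reads as percent of Mir21a reads in each sample on a linear axis from 0, with 95% Wilson intervals that treat reads as independent (blue, control, and orange, LPS). The control bars lie between 0.813% and 0.902% and the LPS bars between 0.955% and 1.32%, with LPS replicate 1 the highest.

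The 3p arm had far fewer reads than the 5p arm and 183 distinct sequences, compared with 250 for the 5p arm. Of the 183, 9 held 91.4% of its reads. Its leading sequence held a mean of 54.3%, compared with 34.7% for the 5p arm, while its starts and unmatched 3′ bases were more varied. The leading sequences are shown with the annotated one, since the annotated end was rare. Capitals mark unmatched bases or bases past the annotated end.

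21 nt, templated: caacagcagtcgatgggctgt

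21 nt, A unmatched: caacagcagtcgatgggctgA

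21 nt, start shifted by 2: acagcagtcgatgggctgtcT

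22 nt, A unmatched: caacagcagtcgatgggctgtA

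22 nt, annotated: caacagcagtcgatgggctgtc

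The templated 21-nt form, 1 base shorter than the annotated sequence, made up 49.1%, 53.0% and 55.4% of miR-21a-3p reads in control replicates 1, 2 and 3, and 59.4%, 52.6% and 56.4% with LPS. The annotated 22-nt form made up 2.38% to 3.53%. The 21-nt form that ends in an unmatched A held 5.74% to 8.74%, and the 22-nt form with an unmatched A 5.90% to 7.52%. The ranges of control and LPS samples overlapped for each of these.

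Starts were also less fixed on this arm. The annotated start held 83.4% to 88.4% of miR-21a-3p reads, and a start 2 bases later 5.62% to 9.23%. A start 1 base later held 6.95% to 7.45% in the control samples and 5.82% to 6.67% with LPS. These ranges did not overlap, and the difference was not tested. Such shifts move the seed, since it is counted from the first base. Unmatched 3′ bases were found in 22.6% to 29.0% of reads in the control samples and 21.8% to 24.4% with LPS, mostly A alone (13.8% to 18.3%). Mixed bases were seen in 4.44% to 6.09% and T alone in 2.86% to 4.17%, while C alone and G alone were at 0.413% or below.

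Among 63 arms with a mean of at least 1000 RPM, the 2 arms of Mir21a lay on either side of the median tailed share of 12.9%, with 4.63% for miR-21a-5p (12 arms lower) and 24.3% for miR-21a-3p (45 arms lower). The most abundant sequence held a mean of 34.7% of miR-21a-5p, and in 8 of the 63 arms the leading sequence held less. For miR-21a-3p it held 54.3%, beside a median of 59.5%. The most used start held 99.2% of miR-21a-5p and 85.3% of miR-21a-3p, beside a median of 99.0%.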

How the data were processed

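Libraries were made by the authors from total RNA (TruSeq small RNA) and run on a HiSeq 1000. Adaptors were removed with Btrim64 and custom perl code, and mirAnalyzer, whose output was not analysed here, then gave miRNA levels. The deposited files hold the trimmed reads before that last step, as raw counts of each distinct sequence of 11 to 40 nt. The submitters' processing notes name mm9 with no role, and the labels name DMEM as the medium where the study's methods name RPMI. Trimming sets the 3′ ends, and its settings are not given in the sources used here.

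Reads were matched to hairpins of GENCODE M21 (GRCm38), and a read was put on the 5p or 3p arm by its position relative to the middle of the hairpin. Arms were joined where they had 50% or more of their reads in common. Arms were filtered by filterByExpr (973 to 319), scaled by TMM and compared in edgeR 4.0.16 (R 4.3.3), with DESeq2 1.42.0 and limma 3.58.1 as alternatives. The SE is the absolute log2 fold change over the square root of F. Shares within Mir21a were compared by two-sided exact permutation tests without pairing (scipy 1.17.1). Further alternatives were library totals, upper-quartile normalization, other count filters, other read lengths and numbers of unmatched bases, all reads as the denominator, each replicate left out and the replicate block. The matching, the fit and the permutation test were tested on simulated data.

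Named sequences have a mean share of at least 1% of their arm, at most 10 per arm, of which 5 are printed for the 3p arm. Also named are arms sharing a seed, up to 3 neighbours in level on each side and the 5 arms most like miR-21a-5p. Of the LPS list, up to 6 members of highest level are named, and further ones of lower level picked after seeing the values. Members, lists and rules were chosen with earlier results of these data known.

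The labels number replicates 1 to 3 in both groups. Deviations from the group means correlated at 0.60, 0.26 and 0.28 for samples of the same number and between -0.39 and 0.16 otherwise, across 319 arms, which are not independent. Deviations cancel within each group, so a positive value for a pair forces negative ones elsewhere, and the contrast is partly built in. Whether the numbers mark a shared culture is not given in the sources used here. The main fit and the permutation tests therefore used no pairing. The replicate block and the sign-flip test took the numbers as pairs, as alternatives.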

Additional observations from a re-analysis of the deposited data

How the results depend on the processing

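In all, 12 results were recomputed under 155 alternatives, of which 146 kept the direction and the side of the threshold. The 8 values compared by permutation cannot reach a p below 0.1, so they could not change side, and the tally overstates stability. Without the low-count filter, 21 arms were called higher in place of 0 and neither Mir21a arm was among them (adjusted p = 0.944 for 5p and 0.900 for 3p by edgeR). With the replicate block, 0 arms were called, and the log2 fold changes were -0.14 for miR-21a-5p and 0.16 for miR-21a-3p. A block fit that omits pair 2, chosen after seeing the data, gave -0.0017 and 0.35. For the 8 values compared by permutation, the block was an exact sign-flip test over 3 pairs, also added after seeing the data, which keeps each difference and cannot give a p below 0.25. In the edgeR fits the block changed no call. Leaving out 1 replicate at a time, miR-21a-3p ran from -0.15 (without LPS replicate 1) to 0.39 and miR-21a-5p from -0.31 to -0.034. The 23-nt share difference ran from -0.481 to 0.780 percentage points, that of unmatched 3′ bases from -0.264 to 0.031, and that of unmatched A from -0.068 to 0.046, so these 3 have no stable sign. The 3p share difference ran from 0.0938 to 0.277 points when 1 replicate was left out and from 0.193 to 0.215 under other matching rules. For the 3p arm, read 1811 to 13582 times a sample, the Wilson intervals treat reads as independent and can understate the counting error.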

Other observations

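Reads outside the matching rule with 1 substitution in the first 22 bases of the 22-, 23- or 24-nt form of miR-21a-5p were counted. A substitution within the last 3 bases of a read fits that rule and counts as unmatched 3′ bases. Such reads are not included here, and position 22 is not covered. The counted reads amounted to 0.830% to 0.946% of those forms in 5 samples and to 0.624% in LPS replicate 2. The most frequent by mean share was T1G, with the hairpin's base first and positions counted from the 5′ end of miR-21a-5p, at 0.185% to 0.198% in 5 samples and 0.072% in LPS replicate 2. A2G, the next, was at 0.057% to 0.073% in all 6 samples. G11A was at 0.084% in control replicate 1 and at 0.017% to 0.029% in the other samples. Misreading, synthesis errors and editing cannot be told apart here.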
